A study of Mus musculus with 63 samples.

Results

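Complement genes were described in cells sorted from the brains of burned and sham-treated mice, for 9 genes of the 56980 in the count tables. These were the components C1qa, C1qb, C1qc, C4b and C3, the receptors C3ar1, C5ar1 and Itgam, and the inhibitor Serping1. They were found in the count tables by gene symbol. The study asked how a peripheral burn alters transcription in brain cells, by RNA sequencing of 4 sorted populations, each from a burn and a sham group. The animals were female C57BL/6J mice, 12 weeks old on arrival, with no engineered allele. Burned mice received a full-thickness burn over 7 to 8% of the body surface from heated brass on the right flank, and sham mice went through the same steps, shaving included, without the burn. Tissue was taken 5 weeks after injury. All mice of both groups had received bilateral cortical injections of 2 viral vectors, AAV5-CamKII-eGFP and AAV1-mDlx-mRuby2, so a promoter and an enhancer in a virus, not an endogenous protein, marked the labelled cells.

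From the motor cortex came the CaMKII positive libraries (eGFP alone, labelled excitatory neurons) and the double-positive libraries (eGFP and mRuby2, labelled inhibitory neurons). The cortex caudal to it gave the ACSA2-positive libraries, labelled astrocytes, and the CD11b-positive libraries, labelled microglia. Region and population therefore cannot be told apart between these 2 pairs of sorts. After all libraries of mouse 3 and the double-positive library of mouse 8 were left out, 58 of 63 libraries from 17 mice were used. There were 4 burn and 6 sham CaMKII positive, 9 and 7 double-positive, 9 and 8 ACSA2-positive, and 8 and 7 CD11b-positive libraries. Library totals ran from 13346143 to 134703744 counts. The double-positive library left out held 331215 counts, and all 9 genes were at 0 in it. Levels are counts scaled to a library total of 1000000 (CPM), with the SD over libraries.

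Complement is a cascade of plasma and tissue proteins that tags surfaces for clearance. C1q, built from the A, B and C chains, binds a target and starts the classical pathway, C4 and C3 are cleaved and deposited in turn, and the fragments C3a and C5a signal through their own receptors while CR3 takes up tagged material. In the brain, microglia are the best known source of C1q, and C1q, C3 and CR3 are known for their part in the removal of synapses.

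The labels were checked against marker genes. The double-positive libraries carried the microglia list (8 genes such as Csf1r and P2ry12) at a summed 16872 to 32693 CPM, near the 20461 to 32749 CPM of the CD11b-positive libraries. Their 10 inhibitory neuron markers, such as Gad1 and Gad2, summed to between 0.80 and 3.75 CPM, and none of the 10 averaged over 1 CPM. The CaMKII positive libraries held 13517 to 25570 CPM of 8 astrocyte markers and 3816 to 10793 CPM of 7 endothelial markers. Their 6 excitatory neuron markers summed to 22.8 to 397 CPM and the microglia list to 459 to 1870.0 CPM. Both neuronal labels thus go against these genes, and the libraries are named here by their sort. The ACSA2-positive libraries held 36170 to 50721 CPM of astrocyte markers and 152 to 285 CPM of microglia markers.

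C1qa, C1qb and C1qc, the chains of the C1q recognition molecule, were high in double-positive and CD11b-positive libraries, far lower in CaMKII positive libraries and near 0 in ACSA2-positive libraries. C1qa averaged 91.6 ± 74.8 CPM (SD, n = 10) in CaMKII positive, 1194 ± 159 (n = 16) in double-positive, 2.10 ± 2.18 (n = 17) in ACSA2-positive and 1319.6 ± 221 CPM (n = 15) in CD11b-positive libraries. C1qb averaged 116 ± 95.3, 1651 ± 267, 2.81 ± 2.35 and 1780.5 ± 276 CPM in the same order. C1qc averaged 119 ± 93.7, 1724 ± 250.4, 3.40 ± 4.19 and 1875 ± 243 CPM in that order. The ranges of the double-positive and the CD11b-positive libraries overlapped for each chain, and every other pair of populations was separated. Here and below, ranges describe the named genes only, with no share over all genes beside them. In each mouse with both sorts, the CaMKII positive library lay below the double-positive (9 mice) and the CD11b-positive one (10 mice), and above the ACSA2-positive one (10 mice).

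**Figure D1:**
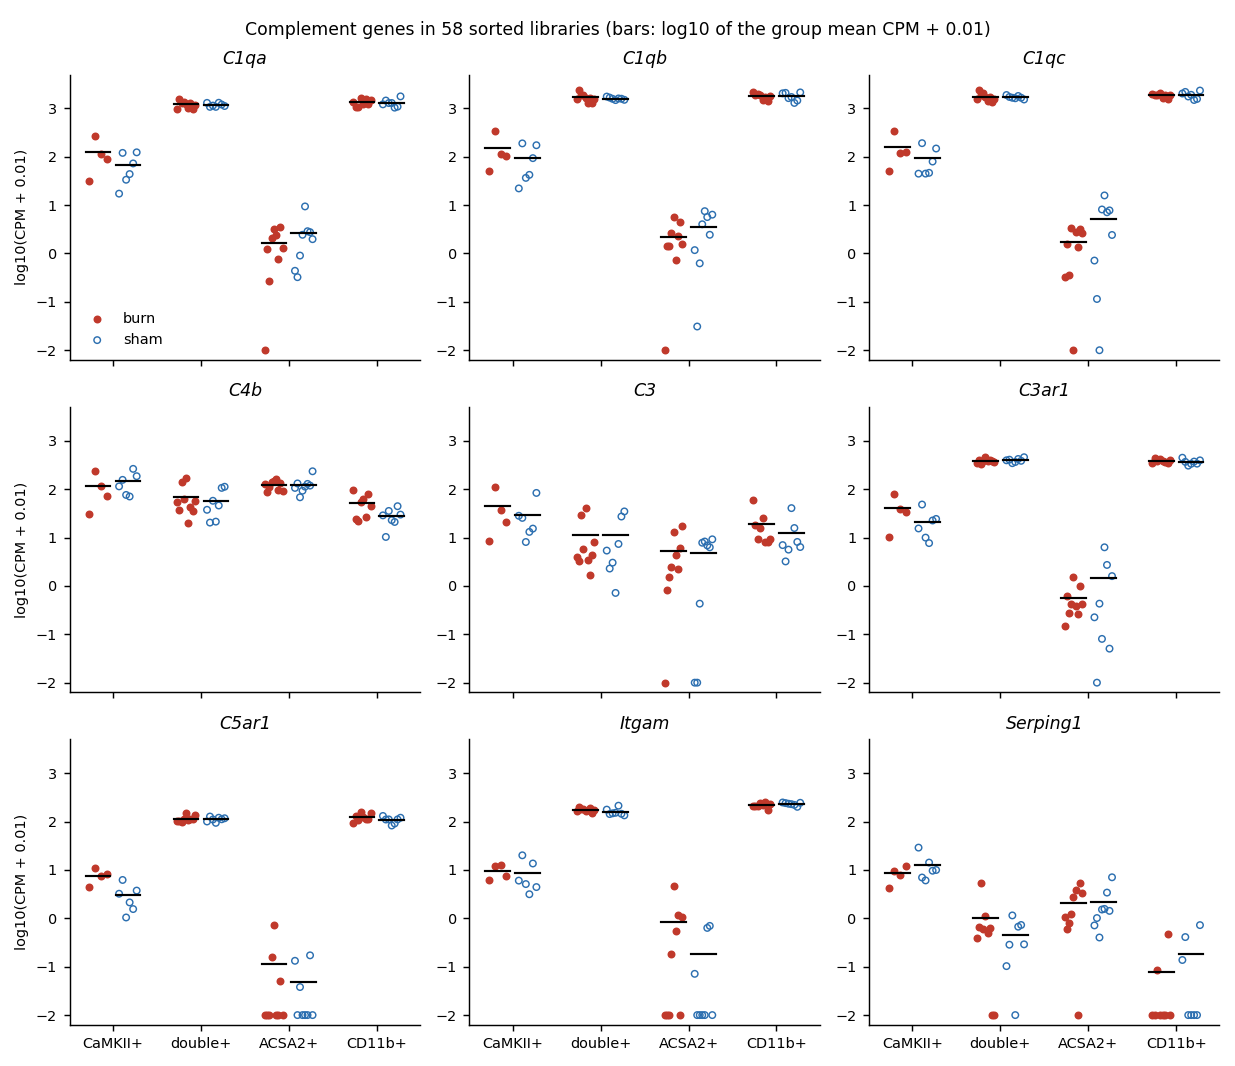
Each point is 1 of the 58 libraries, by population on the horizontal axis and on a log10 scale of CPM plus 0.01 on the vertical axis; colours mark burn and sham and bars the group means. The chains of C1q, C3ar1, C5ar1 and Itgam share 1 profile, with C1qa at 1194 CPM in double-positive and 2.10 CPM in ACSA2-positive libraries, while single libraries hold between 10.3 and 263 CPM of C4b.

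Counts were tested by the quasi-likelihood method of edgeR, p-values were adjusted over all genes by Benjamini and Hochberg, and genes were called at an adjusted p up to 0.05 with a log2 fold change of at least 1 in size. C1qa fell from double-positive to CaMKII positive libraries by 3.98 on the log2 scale (SE 0.40, adjusted p = 8.6e-13), and C1qb and C1qc changed by -4.04 and -4.05. Against ACSA2-positive libraries, C1qa was higher in CaMKII positive libraries by 5.28 (SE 0.35, adjusted p = 7.55e-19) and in double-positive libraries by 9.26 (SE 0.39). Of the 9 genes, 7 were called between CaMKII positive and double-positive libraries, where 42.5% of all genes tested were called. Those 7 were the 3 C1q chains, the 3 receptors and Serping1. Between CaMKII positive and ACSA2-positive libraries 8 of 9 were called (16.2% of all genes), between CaMKII positive and CD11b-positive 8 (42.2%), and 9 both between double-positive and ACSA2-positive (51.1%) and between ACSA2-positive and CD11b-positive libraries (51.2%). The counts against CD11b-positive libraries include Itgam, the antigen of that sort. The median log2 fold change of the 9 genes was -3.98, 4.89, -4.14, 8.89 and -9.31 in these 5 pairs, and that of all genes tested 0.10, -0.05, 0.17, -0.11 and 0.24. Calls for the C1q chains and the 3 receptors between these pairs held in every setting tried.

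In CaMKII positive libraries the C1q level was set beside the microglia list. The highest summed value of the list, 1870.0 CPM, and the highest C1qa level, 273 CPM, were in the same library, from burned mouse 20. Over the 10 libraries of this sort, however, C1qa ran from 30.8 to 146 per 1000 counts of the list. Per 1000 counts of the list, C1qa stood at 78.9 ± 33.4 in CaMKII positive, 55.7 ± 7.87 in double-positive and 50.7 ± 8.14 in CD11b-positive libraries, with overlapping ranges, where the mean CPM had differed 13.0-fold between the first 2. In ACSA2-positive libraries it was 9.05 ± 7.75, but the list was uneven there, with a median gene of 7.13 ± 5.60 CPM beside a median sum of 212 CPM, against 2241 ± 263 and 26742 CPM in CD11b-positive libraries. The part of the list in the C1q level was not tested, and in bulk libraries fewer cells of a type and less RNA per cell cannot be told apart.

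**Figure D2:**
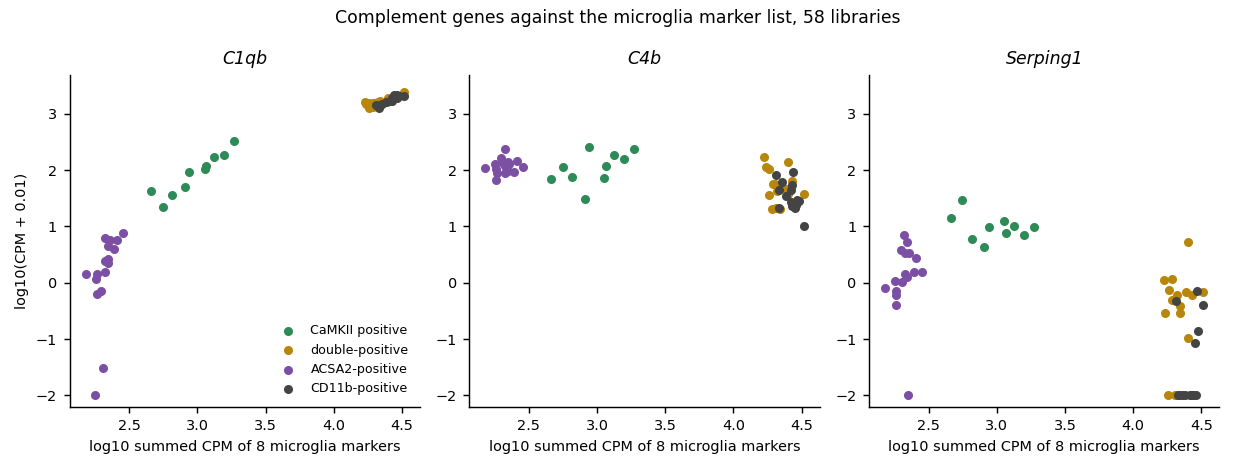
Levels of C1qb, C4b and Serping1 (log10 of CPM plus 0.01) are plotted against the log10 summed CPM of 8 microglia markers, with 1 point for each of the 58 libraries coloured by population. The CaMKII positive libraries, at 459 to 1870.0 CPM of the list, lie between the ACSA2-positive libraries at 152 to 285 CPM and the 2 sorts above 16872 CPM.

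C1qb stood to C1qc at 0.956 ± 0.035 in double-positive (n = 16) and 0.948 ± 0.057 in CD11b-positive libraries (n = 15), and at 0.935 ± 0.195 in CaMKII positive libraries (n = 10). C1qa stood to C1qb at 0.728 ± 0.060, 0.749 ± 0.115 and 0.812 ± 0.135 in the same order, and stood to C1qc at 0.695 ± 0.047, 0.705 ± 0.082 and 0.753 ± 0.174. Their genes lie side by side on chromosome 4. The promoter sequences are shown for the 3 genes of this profile that held an ETS-type letter run. ETS factors include PU.1, a regulator of macrophages and microglia. Shown are 250 bases before each start in the GRCm38.p6 build, from RefSeq, all on the minus strand and read 5′ to 3′. Capitals mark GGAAGT, or the longer GAGGAAGT in C1qc, here found on the opposite strand, so that they read ACTTCC and ACTTCCTC. C1qb is chr4:136886201-136886450, C1qc is chr4:136892915-136893164 and C5ar1 is chr7:16259339-16259588.
C1qb: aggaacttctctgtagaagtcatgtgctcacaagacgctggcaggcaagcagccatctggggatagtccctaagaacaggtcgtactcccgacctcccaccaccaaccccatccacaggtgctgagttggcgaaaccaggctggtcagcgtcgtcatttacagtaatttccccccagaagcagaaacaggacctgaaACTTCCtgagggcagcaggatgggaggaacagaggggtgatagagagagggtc
C1qc: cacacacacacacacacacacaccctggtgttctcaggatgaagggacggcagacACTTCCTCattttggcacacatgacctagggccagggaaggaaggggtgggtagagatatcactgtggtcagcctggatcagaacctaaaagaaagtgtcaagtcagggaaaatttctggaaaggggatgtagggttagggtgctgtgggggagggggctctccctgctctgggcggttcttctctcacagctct
C5ar1: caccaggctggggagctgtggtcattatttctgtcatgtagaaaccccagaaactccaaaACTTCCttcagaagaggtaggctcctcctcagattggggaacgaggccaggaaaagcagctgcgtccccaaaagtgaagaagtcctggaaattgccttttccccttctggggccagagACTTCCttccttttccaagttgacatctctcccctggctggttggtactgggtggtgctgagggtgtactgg

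Promoters were found for 6 of the 9 genes. Both strands were searched for GGAAGT, GAGGAAGT (which contains GGAAGT), the STAT-type form TTCNNNGAA and the interferon-stimulated response element. GGAAGT occurred in 19.7% and GAGGAAGT in 2.44% of 32851 mouse promoters of that length, and the other 2 forms in 7.02% and 2.98%. C3ar1, Itgam and C3 held none of the 4, and C1qb, C1qc and C5ar1 neither of the last 2. A match describes letters only.

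C4b and C3, the components deposited on targets, followed other profiles. C4b averaged 133 ± 76.5 CPM in CaMKII positive (n = 10), 64.0 ± 45.0 in double-positive (n = 16), 123 ± 38.0 in ACSA2-positive (n = 17) and 40.2 ± 23.8 CPM in CD11b-positive libraries (n = 15). All pairs overlapped, yet the ACSA2-positive library exceeded the CD11b-positive one in 15 of 15 mice. The change there was 1.87 (SE 0.27, adjusted p = 2.59e-08), and CaMKII positive libraries exceeded CD11b-positive ones by 1.62 (SE 0.30). Double-positive libraries fell by 1.07 below ACSA2-positive ones (SE 0.26, adjusted p = 0.000276). That call sits at the minimum fold, since it was lost at -0.999 with library size only, at -0.95 in batch 3 alone and at -0.99 without mouse 21. CaMKII positive and ACSA2-positive libraries differed by -0.25 (95% interval -0.86 to 0.36). CaMKII positive libraries exceeded double-positive ones by 0.82 (SE 0.30, adjusted p = 0.0172), under the minimum fold, and by 1.02 in batch 3 alone, where C4b was called. In the edgeR fit of these 2 populations alone the difference was 0.61 (SE 0.37, adjusted p = 0.168). Of the 50-base windows of C4b, 34.6% also occur in its near-copy C4a, so their reads may be split.

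C3, the central component, was low and variable. It averaged 35.3 ± 35.0 CPM in CaMKII positive, 11.3 ± 13.4 in double-positive, 5.09 ± 5.02 in ACSA2-positive and 16.1 ± 15.7 CPM in CD11b-positive libraries, so the SD neared the mean throughout. All ranges overlapped. CaMKII positive libraries exceeded ACSA2-positive ones by 2.60 (SE 0.60, adjusted p = 0.000456), and the change from CD11b-positive to ACSA2-positive libraries was -1.73 (SE 0.57, adjusted p = 0.00698). The latter was not called in batch 3 alone, at -0.84. The double-positive excess over ACSA2-positive libraries, 1.41 (SE 0.55, adjusted p = 0.0218), became 1.09 with the mouse as a block and 0.72 in batch 3 alone, and it was not called without mouse 10 (1.13) or mouse 19 (1.27) either. Across the settings tried its adjusted p ran from 0.0102 to 0.278. C3 was 0.58 CPM in batch 1 and 8.14 CPM in batch 3 on average in ACSA2-positive libraries. CaMKII positive and double-positive libraries differed by 1.19 (95% interval -0.07 to 2.44), which was called in batch 3 alone (1.53) and without mouse 10 (1.47). CaMKII positive and CD11b-positive libraries differed by 0.86 (95% interval -0.39 to 2.12), which was called in batch 3 alone and without mouse 2 (1.42).

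The receptors C3ar1, which binds C3a, and C5ar1, which binds C5a, kept to the C1q profile. C3ar1 averaged 29.1 ± 22.5, 390.5 ± 34.2, 0.958 ± 1.54 and 376 ± 39.4 CPM in CaMKII positive, double-positive, ACSA2-positive and CD11b-positive libraries. C5ar1 averaged 4.85 ± 3.19, 114 ± 15.3, 0.0719 ± 0.176 and 117 ± 19.9 CPM, and was at 0 in 11 of 17 ACSA2-positive libraries. For both genes the double-positive range overlapped that of CD11b-positive libraries and was separate from those of the other 2 sorts. Between CaMKII positive and double-positive libraries C5ar1 changed by -4.66 (SE 0.29, adjusted p = 1.23e-20) and C3ar1 by -3.97 (SE 0.42). Double-positive libraries exceeded ACSA2-positive ones by 10.78 for C5ar1 (SE 0.33) and 8.86 for C3ar1 (SE 0.41).

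Itgam encodes CD11b, the alpha chain of CR3, which binds deposited C3 fragments. It was the antigen of 1 sort, so its level there is no finding. It averaged 9.10 ± 5.35 CPM in CaMKII positive, 169 ± 22.7 in double-positive, 0.525 ± 1.13 in ACSA2-positive and 224 ± 21.0 CPM in CD11b-positive libraries. Double-positive libraries were sorted by their fluorescent proteins. Of its exon bases, 68.7% are shared on the same strand with Gm49368, so the split of reads is uncertain.

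Between double-positive and CD11b-positive libraries 1 of 9 genes was called, against 6.82% of all genes tested, with a median log2 fold change of -0.12 over the 9 genes and 0.15 over all genes. That gene was Serping1, which encodes C1 inhibitor, the serpin that stops C1r and C1s. The C1q chains differed by at most 0.16 in size, with 95% intervals of -0.73 to 0.41 for C1qa, -0.77 to 0.53 for C1qb and -0.84 to 0.56 for C1qc. C4b differed by 0.80 (SE 0.27, adjusted p = 0.0451), under the minimum fold. In the fit of these 2 populations alone, added after seeing the data, C1qa differed by -0.22 (SE 0.08, adjusted p = 0.0440) and C1qc by -0.19 (SE 0.06, adjusted p = 0.0339), also under it, and C1qb by -0.17 (adjusted p = 0.0678). Itgam, the antigen of 1 of the 2 sorts, differed by -0.42 in the fit over all populations and by -0.48 in that of these 2 alone, and was lower in the double-positive library in 14 of 14 mice, which is given as a description, with no test.

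Serping1 averaged 11.0 ± 6.97 CPM in CaMKII positive (n = 10), 0.770 ± 1.27 in double-positive (n = 16), 2.11 ± 1.92 in ACSA2-positive (n = 17) and 0.119 ± 0.224 CPM in CD11b-positive libraries (n = 15), 10 of which were at 0. CaMKII positive and CD11b-positive libraries were separated, at 6.20 (SE 0.82, adjusted p = 2.5e-09), and the CaMKII positive library was the higher one in 10 of 10 mice. The other changes were 3.7 for CaMKII positive against double-positive, 2.04 for CaMKII positive against ACSA2-positive (SE 0.67, adjusted p = 0.0149), 4.17 for ACSA2-positive against CD11b-positive and -1.67 for double-positive against ACSA2-positive libraries (SE 0.64, adjusted p = 0.0191). The last was not called without mouse 19 (-1.40), nor the second without mouse 8 (1.79) or in batch 3 alone (1.59), with an adjusted p of 0.00115 to 0.175 across settings. The double-positive excess over CD11b-positive libraries, 2.50 (SE 0.70, adjusted p = 0.0135), rested on few counts. It was not called without mouse 10 (2.02), in batch 3 alone (1.91) or in the 2 populations alone (2.36), with an adjusted p of 0.000356 to 0.233 across settings. With the mouse as a block it was 3.30.

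Serping1 was set beside 6 fibroblast markers, such as Dcn and Col1a1. Their summed level ran from 57 to 725 CPM in CaMKII positive, 3.23 to 132 in double-positive, 33.0 to 78.2 in ACSA2-positive and 0.253 to 3.15 CPM in CD11b-positive libraries. The order of the sorts is not particular to fibroblasts. Median sums of 7 mural markers, at 1212, 22.8, 846 and 7.68 CPM in the same order, also ranked the sorts as the mean of Serping1 did. The double-positive library of mouse 10 held both the highest Serping1, 5.32 CPM, and the highest fibroblast sum, 132 CPM. It also held the highest sums of its sort for endothelial cells (640 CPM), oligodendrocytes (419 CPM) and border macrophages or monocytes (355 CPM). Likewise the CaMKII positive library of mouse 8 had 29.0 CPM of Serping1 and a fibroblast sum of 725 CPM, the highest of each. Its oligodendrocyte sum, 3823 CPM, was the highest of its sort as well. In ACSA2-positive libraries the pairing was mixed. Mouse 21, with the highest fibroblast sum of 78.2 CPM, held 3.84 CPM of Serping1, and mouse 23, at 72.3 CPM, held the next to highest Serping1, 5.32 CPM. Mouse 19 held the highest Serping1, 7.05 CPM, beside the lowest fibroblast sum, 33.0 CPM. In CaMKII positive mice 16 and 2 the next highest sums, 223 and 190 CPM, stood beside the lowest Serping1 levels, 6.08 and 4.31 CPM. The part of these lists in the result was not tested.

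**Figure D3:**
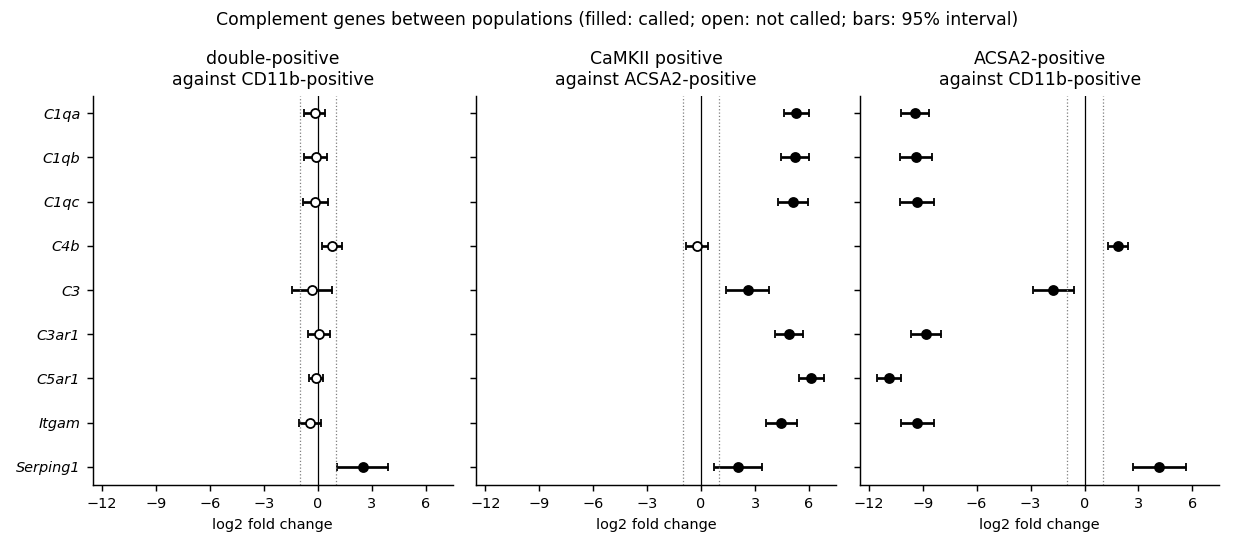
Points are log2 fold changes of the 9 genes in 3 pairs of populations, filled where called and open where not, with bars for the 95% interval and dotted lines at the minimum fold change of 1. C1qa lies at -9.42 between ACSA2-positive and CD11b-positive libraries and at -0.16 between double-positive and CD11b-positive libraries, where Serping1 alone is filled, at 2.50.

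Levels of different genes were compared per kilobase of annotated exon. C1qb was the highest member in CaMKII positive, double-positive and CD11b-positive libraries, at 107 ± 87.6, 1517 ± 246 and 1636 ± 254 CPM per kilobase, followed by C1qa and C1qc. In ACSA2-positive libraries C4b led, at 21.6 ± 6.67 CPM per kilobase, above C1qb at 2.58 ± 2.16 and C1qa at 2.02 ± 2.09, whose SDs overlap. C3ar1 followed the C1q chains in double-positive libraries at 90.7 ± 7.95, with C5ar1 at 44.2 ± 5.97 and Itgam at 33.7 ± 4.51 CPM per kilobase. In CD11b-positive libraries C5ar1 and Itgam, at 45.4 ± 7.76 and 44.6 ± 4.18, did not differ beyond their SD. The level and rank of Itgam per kilobase are uncertain, since 68.7% of its exon bases are shared with Gm49368.

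**Figure D4:**
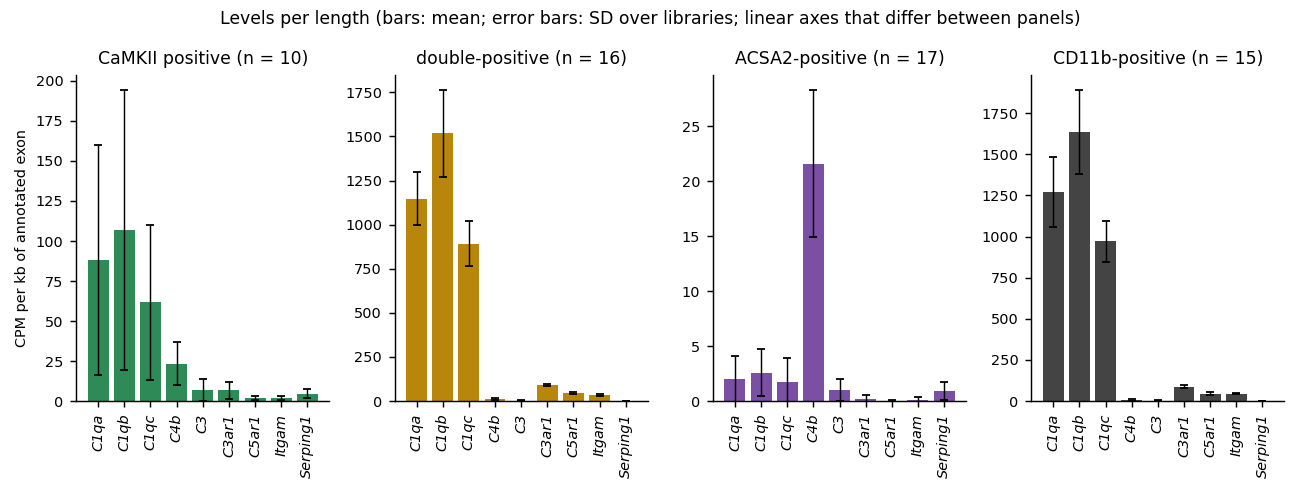
Bars give the mean level of each gene in CPM per kilobase of annotated exon, with the SD over libraries, in a panel with its own linear axis for each population. C1qb leads in 3 panels, at 1636 CPM per kilobase in CD11b-positive libraries, and C4b leads in ACSA2-positive libraries at 21.6.

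Burn was compared with sham within each population, with the batch as a term. In double-positive libraries batch 1 held 3 burn and 0 sham libraries, and in CD11b-positive libraries batch 2 held 1 sham library, of mouse 13, so these 4 libraries hold no contrast of burn with sham within their batch. None of the 9 genes was called in any of the 4, and every burn range overlapped its sham range. The share of all genes with such an overlap is not given, so the overlap only describes the members. No gene at all was called by edgeR in CaMKII positive (0% of 28107 tested), double-positive (0% of 26707), ACSA2-positive (0% of 27930) or CD11b-positive libraries (0% of 26079). At an unadjusted p under 0.05 there were 1096, 1872, 2984 and 2036 genes, and DESeq2 called 3, 2, 27 and 80, none of them a member. The median log2 fold change of the 9 genes was 0.80, 0.03, -0.02 and 0.06 in that order, and that of all genes tested 0.02, -0.00, 0.05 and 0.00.

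In double-positive libraries the burn and sham levels of C1q lay close together. C1qa ran from 955 over a median of 1238 to 1531 CPM in 9 burn libraries and from 1075 over 1143 to 1307 CPM in 7 sham libraries. Its change was 0.03 (95% interval -0.18 to 0.24), and those of C1qb and C1qc were -0.01 (-0.19 to 0.18) and -0.02 (-0.21 to 0.16). C3ar1 changed by 0.01 (-0.16 to 0.18). Itgam changed by 0.13 (-0.08 to 0.33), with 150.3 to 204 CPM in burn and 135 to 213 CPM in sham libraries. It was above the sham median in 9 of 9 burn libraries. The intervals were wide for C3, -1.65 to 1.42, and Serping1, -1.80 to 2.09.

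In CD11b-positive libraries C4b had the smallest unadjusted p of the 9 genes. It ran from 21.7 over a median of 49.9 to 94.0 CPM in 8 burn libraries and from 10.3 over 28.8 to 44.5 CPM in 7 sham libraries. Burn libraries held the 5 highest values, and the ranges overlapped. The change was 0.80 (SE 0.27, 95% interval 0.24 to 1.35), which edgeR's quasi-likelihood test gave at p = 0.00716 and an adjusted p of 0.639. Markers of border macrophages or monocytes (7 genes such as Mrc1 and Ccr2) were also higher in burn libraries, with a summed 261 to 540 CPM (median 428) against 97.7 to 422 CPM (median 322) in sham libraries. They summed to 463, 540, 539 and 477 CPM in burned mice 20, 21, 23 and 24, which hold 4 of the 5 highest C4b levels, and to 261 CPM in burned mouse 2, which holds the highest. The lowest sham value of each, 10.3 CPM of C4b and 97.7 CPM of these markers, was that of mouse 13, which cannot be told apart from its batch. The part of these markers was not tested. C3 was above the sham median in 8 of 8 burn libraries, at a median of 12.7 CPM against 6.97 CPM, with a change of 0.23 (-0.76 to 1.22) that was -0.16 in batch 3 alone. C5ar1 changed by 0.22 (-0.03 to 0.47), and C1qa, C1qb and C1qc by 0.10, 0.01 and -0.01.

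The CaMKII positive group had 4 burn libraries. C5ar1 was 4.37, 10.8, 7.34 and 8.13 CPM in burned mice 2, 20, 22 and 24, and 1.03 to 6.21 CPM, with a median of 2.67, in 6 sham libraries. The burn value of mouse 2 lay within the sham range and the other 3 above it. Its change was 1.36 (95% interval 0.12 to 2.60, edgeR unadjusted p = 0.0336). C1qa was 31.1, 273, 111 and 89.4 CPM in the same mice and 17.3 to 123 CPM in sham libraries, at a change of 0.99 (0.16 to 1.81, edgeR unadjusted p = 0.0225). Mouse 20 stood highest for both, and without it the change of C1qa was 0.49. Their adjusted p was 1.00 in each case. The microglia list summed to 813, 1870.0, 1160 and 1131 CPM in these 4 libraries and 459 to 1574 CPM in sham libraries. Markers of border macrophages or monocytes summed to a median of 51.1 CPM in burn and 23.1 CPM in sham libraries, with overlapping ranges. Mouse 20 held their highest sum, 145 CPM. The part of these lists was not tested. C4b changed by -0.41 (95% interval -1.35 to 0.54), which ran from -0.94 without mouse 20 to -0.055 without mouse 8, and Serping1 by -0.42 (-1.45 to 0.61), which ran from -0.68 to 0.084 when 1 mouse was left out.

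In ACSA2-positive libraries C4b was the best counted member. It ran from 87.9 over 129 to 166 CPM in 9 burn and from 68.0 over 116 to 234 CPM in 8 sham libraries, at a change of -0.02 (-0.38 to 0.35). C3 ran from 0 over a median of 2.40 to 17.6 CPM in burn and from 0 over 6.57 to 9.18 CPM in sham libraries. Its change was 1.16 (-0.32 to 2.65), and 0.17 in batch 3 alone. The other members were low there and their intervals wide, with changes of -0.16 (-1.52 to 1.21) for C1qa, 1.85 (-1.06 to 4.77) for Itgam and 0.95 (-2.82 to 4.72) for C5ar1. The burn library of mouse 20 was the highest for Itgam and C5ar1, and without it their changes were 0.97 and -1.42. C1qc was below the sham median in all 9 burn libraries, with means of 1.74 and 5.26 CPM, at -0.65 (-2.65 to 1.35). That change ran from -1.66 to -0.24 when 1 mouse was left out, the ends being without mouse 11 and without mouse 20, and was -2.02 in batch 3 alone.

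**Figure D5:**
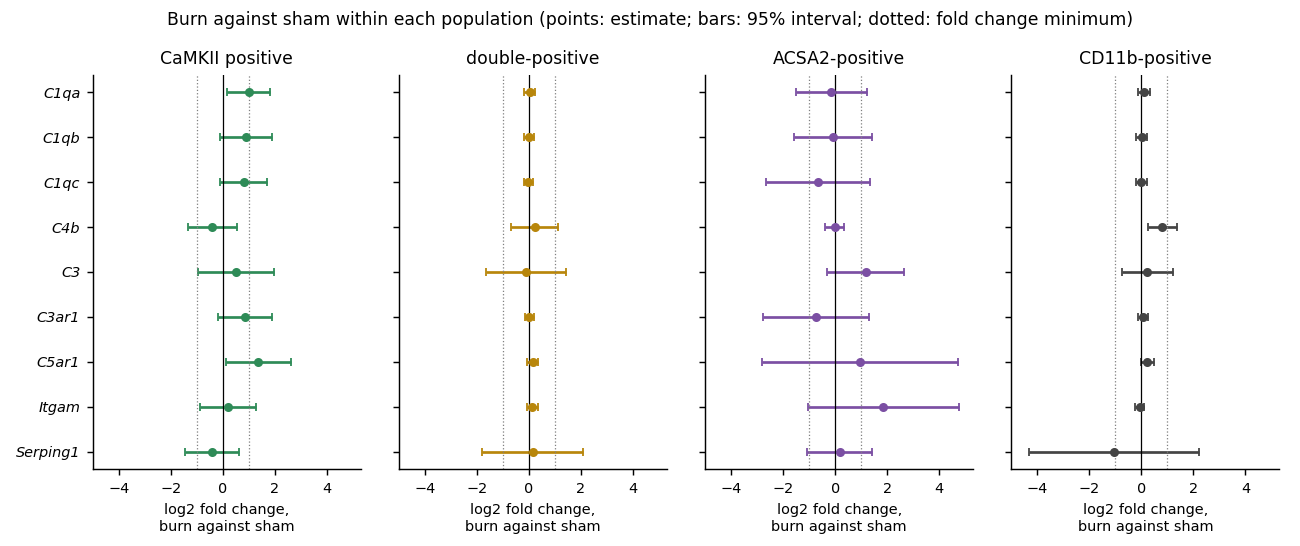
Points are log2 fold changes of burn against sham for the 9 genes in each of the 4 populations, with bars for the 95% interval and dotted lines at the minimum fold change of 1. Intervals are narrow for the C1q chains in double-positive libraries, -0.18 to 0.24 for C1qa, and wide for Serping1 in CD11b-positive libraries, -4.33 to 2.23.

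Differences of the burn effect between populations were tested in the fit over all 58 libraries, and 0 of 9 genes were called in any of the 4 tested pairs. The shares of all genes called were 0.0181% for CaMKII positive minus ACSA2-positive, 0.112% for double-positive minus CD11b-positive, 0.0362% for CaMKII positive minus double-positive and 0% for ACSA2-positive minus CD11b-positive libraries. At an edgeR unadjusted p under 0.05 there were 4, 1, 1 and 2 of the 9 genes in these pairs, beside 2861, 2662, 2696 and 3156 of 33150 genes in all. In the first pair they were C1qa at 1.5 (0.77 to 1.81 when 1 mouse was left out), C1qc at 2.29 (1.39 to 2.59), C3ar1 at 2.18 (1.13 to 2.75) and Itgam at -1.90 (-2.80 to -0.93). The values nearest 0 came without mouse 16 for C1qa and C3ar1 and without mouse 20 for C1qc and Itgam. In the edgeR fit of these 2 populations alone their unadjusted p ran from 0.0843 to 0.271. In the second pair it was Serping1 at 3.05, which ran from 2.01 without mouse 19 to 5.09 without mouse 23 and had an unadjusted edgeR p of 0.209 in the 2 populations alone. Over all settings tried, its lowest value was 0.34. The third held C5ar1 at 1.2, with an unadjusted edgeR p of 0.00195 in the 2 populations alone. It ran from 1.00 to 1.58 when 1 mouse was left out, with a lowest value of 0.73 over all settings. In the last, Itgam was at 2.13, and 0.99 without mouse 20, and C1qc at -1.52. In the 2 populations alone their unadjusted edgeR p was 0.0374 and 0.121, and C4b, at -0.98, had one of 0.0125. None of the 9 genes was called in these 4 fits either.

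Libraries of 1 mouse were compared across populations. For C3ar1 in double-positive against CD11b-positive libraries of the same 14 mice, Pearson's r was 0.806 (permutation p = 0.00169, adjusted p = 0.0608) and Spearman's rho 0.701 (permutation p = 0.0119, adjusted p = 0.43). Without the 2 mice farthest from the median r was 0.661, and in batch 3 alone, with 10 mice, it was 0.851 (permutation p = 0.0024, adjusted p = 0.0864). Of 36 such relations, none passed an adjusted p of 0.05.

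Genes with the profile most like each member were ranked by Pearson's r of log2 CPM over the 58 libraries and 33150 genes, as a description. C1qa was most like Ctss at 0.996, C1qb like C1qa at 0.995, C1qc like Pld4 at 0.994, C3ar1 like Nckap1l at 0.993, C5ar1 like Susd3 at 0.993 and Itgam like P2ry13 at 0.990. C4b was most like its near-copy C4a, at 0.885, and Serping1 like Ccn2, at 0.919. C3 reached only 0.750, with Ciita. The libraries share their population and depth in these values.

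The rest of the pathway was taken as 47 other complement genes in 6 lists, of which 41 were tested between populations. Between double-positive and ACSA2-positive libraries 26 of 41 were called, 9 higher and 17 lower, where 51.1% of all genes were called. Between ACSA2-positive and CD11b-positive libraries 28 were called, 18 higher and 10 lower (51.2% of all genes), and between double-positive and CD11b-positive libraries 6, of which 2 were higher (6.82% of all genes). Of 7 other receptors, 4 were called between double-positive and ACSA2-positive libraries, 3 higher and 1 lower. Itgb2, the beta chain of CR3, averaged 33.5, 331, 0.329 and 393 CPM in CaMKII positive, double-positive, ACSA2-positive and CD11b-positive libraries. Cd93, in the same list, went another way, at 347, 11.2, 36.0 and 15.3 CPM. Among the inhibitors Clu, which binds terminal complexes, averaged 1717, 85.8, 4394.5 and 6.94 CPM. In the classical list C4a averaged 12.8, 5.87, 10.7 and 4.51 CPM and the protease C1ra 3.83, 3.05, 0.496 and 2.94 CPM, and in the lectin list Masp1 averaged 31.7, 5.80, 54.2 and 7.54 CPM and the scavenger receptor Colec12 averaged 23.0, 3.84, 14.5 and 8.86 CPM. In the alternative pathway properdin, Cfp, averaged 12.5, 3.55, 12.4 and 7.55 CPM, and Cfb at most 0.0580 CPM. Terminal components were nearly absent, with 0, 0, 1 and 0 of 7 averaging at least 1 CPM. The highest of them were Hc, which encodes C5, and C8g, at 1.47 and 0.915 CPM in ACSA2-positive libraries. In burn against sham, none of the other complement genes tested was called by edgeR, and at an unadjusted p under 0.05 there were 1 of 35, 1 of 33, 6 of 35 and 1 of 32 in CaMKII positive, double-positive, ACSA2-positive and CD11b-positive libraries, beside 1096 of 28107, 1872 of 26707, 2984 of 27930 and 2036 of 26079 over all genes.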

How the data were processed

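RNA was measured in cells sorted by fluorescence from the cortex. Per the labels and the study's methods, ribosomal RNA was removed with a stranded total RNA kit, the first 15 bases were trimmed with fastp, reads were aligned with STAR 2.7.1 to a build named GRCm39 (and mm10), and the authors deposited a count of reads per gene from GenomicAlignments 1.26.0, not normalized. The strand setting of the counting is not given in the sources used here. The authors' normalised tables were not used here.

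Counts of at least 10 in total were kept, normalised by TMM and tested in edgeR 4.0.16 (R 4.3.3) with the quasi-likelihood test, and Benjamini-Hochberg adjustment ran over all genes. Burn was tested within each population with batch as a term (3 batches), and populations and differences of burn effects in 1 fit over 8 groups and batch. SEs were log2 fold change over the square root of F. DESeq2 1.42.0 was the other tool. Scripts were tested on simulated data. The members and lists were chosen with earlier results of these data known. All 9 members are named, plus, for other complement genes, the 2 highest of each list by mean CPM (1 of them is not reported here), and the gene most like each member. C1q ratios used libraries with at least 10 counts of both genes. Exon lengths and shared windows came from a GRCm38 annotation. Among 228 pairs of libraries within groups 0 were identical, and the smallest chi-square over its degrees of freedom was 13.4. The SD over libraries is given in place of counting intervals. In burn against sham within a population, p-values measure the spread between mice. The fit over 8 groups treats libraries of the same mouse as independent, with the spread of each gene shared over the groups. Its p-values therefore measure a spread between libraries.

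Mouse numbers mark the same animal in each population. The median correlation over mice of deviations from group means was 0.0794, 0.0116, 0.111, 0.0237, 0.106 and 0.0939 in the 6 pairs of populations, and the mouse was used as a block as an alternative.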

Additional observations from a re-analysis of the deposited data

Results flagged for a closer look

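In 72 groups of 4 to 9 libraries, 13 had a library set apart from the rest by the gap to its neighbour. The nominal rate of this rule, 5% of groups, holds for independent groups of normally spread values. CPM here were skewed, with some groups mostly at 0, and the groups share libraries, so no excess over that rate can be read. Each flagged library was the highest of its group. Among the sham libraries, C1qa in ACSA2-positive mouse 16 was 9.39 CPM and C3ar1 there 6.28 CPM, C3 in CaMKII positive mouse 19 was 83.7 CPM, C3 in CD11b-positive mouse 16 was 40.6 CPM, C4b in ACSA2-positive mouse 19 was 234 CPM and Serping1 there 7.05 CPM, and Serping1 in CaMKII positive mouse 8 was 29.0 CPM. Among the burn libraries, C3 in CD11b-positive mouse 2 was 61.0 CPM, C3ar1 in double-positive mouse 20 was 455 CPM, C5ar1 in ACSA2-positive mouse 20 was 0.718 CPM and Itgam there 4.62 CPM, Serping1 in double-positive mouse 10 was 5.32 CPM and Serping1 in CD11b-positive mouse 23 was 0.468 CPM. The value of C5ar1 in ACSA2-positive mouse 20 rests on 14 counts and that of Serping1 in CD11b-positive mouse 23 on 12.

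Burned mouse 3 was left out of the comparisons, apart from the alternative with all deposited libraries. Of 45 values of members in left-out libraries, 5 lay above the highest sham library. They were C1qb at 2083 CPM, C1qc at 2081 CPM and C5ar1 at 156 CPM in the double-positive library, and C3 at 350 CPM and C5ar1 at 167 CPM in the CD11b-positive library. The highest sham values there were 1756, 1890.2, 127, 40.6 and 131 CPM. The highest burn values among the libraries used were 2425, 2388, 152, 61.0 and 156 CPM in the same order. C1qb and C1qc of mouse 3 thus lay within the burn range. Mouse 3 was in batch 1, which had no used sham double-positive library, so burn and batch cannot be told apart there.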

How the results depend on the processing

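The alternatives were another test, other normalisations, other filters on low counts, leaving out the batch term, batch 3 alone, all deposited libraries, the mouse as a replicate block, no minimum fold change, each mouse left out in turn, and, added after seeing the data, the 2 populations alone. Calls of the C1q chains, C3ar1, C5ar1 and Itgam between populations held in all of them. Few counts lay behind C5ar1 in ACSA2-positive libraries (0 to 14) and Serping1 in CD11b-positive libraries (0 to 20), and the intervals of their burn changes were wide. The cause of changes below was not tested.

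For burn against sham, the count of genes called, 0 with edgeR in each population, was 3, 2, 27 and 80 with DESeq2, 14 in double-positive and 4 in ACSA2-positive libraries with no filter on counts, and 136 in double-positive libraries with all deposited libraries. Between double-positive and CD11b-positive libraries the 2262 genes called were 1429 with the mouse as a replicate block and 1005 in batch 3 alone. Members called there, 1, were 0 in batch 3 alone, in the 2 populations alone and without mouse 10, and 0 to 1 over all fits without 1 mouse. The block changed, beside the result it is given with, no other call of a member.

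For differences of the burn effect, CaMKII positive minus ACSA2-positive libraries gave 6 genes, 0 with the replicate block, 2 with all deposited libraries, 0 in the 2 populations alone and 1 to 10 without 1 mouse. Double-positive minus CD11b-positive gave 37, 6 with the block, 10 in batch 3, 248 with all deposited, 0 in the 2 populations alone and 0 to 146 without 1 mouse. CaMKII positive minus double-positive gave 12, 0 with the block, 0 in batch 3, 7 in the 2 populations alone and 2 to 17 without 1 mouse. ACSA2-positive minus CD11b-positive gave 0, 8 in batch 3, 33 with all deposited, 1 in the 2 populations alone and 0 to 41 without 1 mouse.

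Signs turned mostly where values lay near 0. In batch 3 alone, the burn change was 0.089 for Serping1 in CaMKII positive, -0.33 for Serping1, -0.023 for C1qa and -0.059 for C4b in double-positive, and -0.16 for C3, 0.0064 for Itgam and 0.017 for C1qc in CD11b-positive libraries. Without a batch term it was 0.034 for C1qc, 0.078 for C1qb and -0.045 for C3ar1 in double-positive and -0.029 for Serping1 in ACSA2-positive libraries. With all deposited libraries it was 0.059 for C3, 0.44 for C1qc and 0.46 for C1qb in double-positive libraries, and with library size only 0.018 for C4b in ACSA2-positive libraries. Between populations, C4b in CaMKII positive against ACSA2-positive was 0.069 in batch 3, C3 in CaMKII positive against CD11b-positive -0.091 and C3ar1 in double-positive against CD11b-positive -0.047 with all deposited, and C5ar1 in the last pair 0.0072 with the replicate block.

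Without 1 mouse, burn changes ran from -0.68 to 0.084 for Serping1 and -0.42 to 1.25 for C3 in CaMKII positive libraries. In double-positive libraries they ran from -0.33 to 0.48 for Serping1, -1.13 to 0.37 for C3, -0.023 to 0.076 for C1qa, -0.083 to 0.014 for C1qc, -0.053 to 0.030 for C1qb, -0.034 to 0.058 for C3ar1 and -0.32 to 0.43 for C4b. In ACSA2-positive libraries they ran from -0.012 to 0.54 for Serping1, -0.59 to 0.24 for C1qa, -0.71 to 0.13 for C1qb, -1.42 to 2.28 for C5ar1 and -0.10 to 0.16 for C4b. In CD11b-positive libraries they ran from -4.25 to 1.57 for Serping1, -0.17 to 0.93 for C3, -0.10 to 0.0019 for Itgam, -0.068 to 0.086 for C1qc and -0.051 to 0.12 for C1qb, and C3 between double-positive and CD11b-positive libraries from -0.72 to 0.10.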
